A study of Mus musculus with 2 samples.

Results

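The genes described here are 9 long noncoding RNAs, chosen by symbol from the 24421 gene symbols of the count files: the nuclear RNAs *Malat1* and *Neat1*, and the snoRNA host genes *Gas5*, *Snhg1*, *Snhg3*, *Snhg5*, *Snhg6*, *Snhg8* and *Snhg12*. All 9 were found and all 9 passed the filter on low values, a mean of at least 1 CPM (a count scaled by the library's total gene count), which 12588 genes passed. RNA-seq was performed on hematopoietic stem cells (HSCs) in 2 libraries, 1 labelled WT (Ezh2 +/+ CreERT+/-) and 1 labelled Ezh2 KO (Ezh2 Δ/Δ CreERT+/-; below, the KO-labelled library), both of strain C57BL/6. Donor CD45.2 bone marrow, Ezh2+/+ or Ezh2fl/fl and in both cases carrying Cre-ERT, was given to lethally irradiated CD45.1 recipients. The 2 libraries share 1 protocol text, in which mice received 100 µl of tamoxifen per day (10 mg/ml, 5 days) and HSCs were sorted 1 month later as Lin- Sca-1+ c-kit+ cells positive for CD150 and negative for CD34, CD48 and Flt3. The sources used here do not give the promoter of Cre-ERT, the age of the mice, the number of mice behind each library, or a CD45.2 gate in the sort, so residual recipient cells are not addressed by the labels. With 1 library per group there is no replicate check and no p-value. Intervals below are 95% intervals that cover counting error only, and PCR copies were not separated from molecules.

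*Malat1* is a long RNA held in nuclear speckles, the bodies that store splicing factors, and *Neat1* is the scaffold RNA around which paraspeckles form. A snoRNA host gene carries small nucleolar RNAs in its introns. After splicing, the introns are trimmed to snoRNAs, which guide methylation (box C/D) or pseudouridylation (box H/ACA) of ribosomal and other RNAs, while the spliced host RNA of genes such as *Gas5* starts with a pyrimidine tract of the 5′ TOP type and is degraded by nonsense-mediated decay when translated. *Malat1* and *Gas5* are among the abundant noncoding RNAs of many cell types. *Ezh2*, the gene targeted in the study, encodes the catalytic subunit of the Polycomb repressive complex that methylates histone H3 at lysine 27.

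The targeted gene did not separate the libraries. *Ezh2* had 166 counts under the WT label and 129 in the KO-labelled library, or 142.5 and 150.3 normalised read counts, with a log2 ratio of 0.08 (-0.27 to 0.42). A gene-level count also takes reads from exons outside a deleted part, and which exons were deleted is not given in the sources used here. The label of the second library is therefore kept as a label throughout. The libraries also differed in sex-linked genes, singled out after their values were seen: *Xist* had 801 and 4 counts, and *Ddx3y* had 0 and 275, so sex and the genotype label cannot be told apart. The libraries held 5763118 and 4157280 gene counts, and 3 counts, the limit that a count of 0 allows, correspond to 0.521 and 0.722 CPM. The HSC markers (*Kit*, *Ly6a*, *Slamf1*, *Procr*, *Mecom* and *Hlf*) were all detected in both libraries, with summed normalised counts of 11699.9 and 12006. Within this sum *Slamf1*, which encodes the sort marker CD150, had 520 and 248 counts, a log2 ratio of -0.62 (-0.85 to -0.41), and *Ly6a* (Sca-1) had 2019 and 1858, a log2 ratio of 0.32 (0.23 to 0.41). Among 6 markers that the gate removes, the T cell gene *Cd3e* was at 0 in both libraries, and the summed level was 983 and 1318. Other marker sums moved with the label. The eosinophil markers *Prg2*, *Epx*, *Prg3* and *Ear1* were all at 0 in WT against 3195 counts together in the KO-labelled library. Summed normalised counts went from 6390 to 14439 for 5 neutrophil markers and from 242 to 889 for 4 erythroid markers, and from 46590 to 22308 for 7 immediate-early genes. Their part in the values below was not tested.

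The sequences that make the 7 hosts a family are the snoRNAs inside them. All but those of *Snhg3* and *Snhg6* also lie within an exon of some annotated transcript. Of 27 snoRNAs annotated inside the 9 genes (GENCODE M21, GRCm38), *Gas5* holds 9, *Snhg1* 8, *Snhg12* 4, *Snhg3* and *Snhg5* 2 each, and *Snhg6* and *Snhg8* 1 each. *Malat1* and *Neat1* hold 0. One snoRNA per host is shown 5′ to 3′ to display the product each host carries, and capitals mark the letters searched: box C (ATGATGA or GTGATGA in the first 25 bases) with box D (CTGA in the last 20 bases), or, in snoRNAs longer than 100 bases, ACA in the last 8 bases.
Snord47 in *Gas5*, chr1:161038082-161038158 (+ strand): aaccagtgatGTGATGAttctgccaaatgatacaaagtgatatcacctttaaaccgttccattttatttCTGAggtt
Gm25855 in *Snhg1*, chr19:8723993-8724064 (+ strand): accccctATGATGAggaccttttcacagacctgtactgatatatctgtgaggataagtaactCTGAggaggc
Snora73a in *Snhg3*, chr4:132352775-132352979 (- strand): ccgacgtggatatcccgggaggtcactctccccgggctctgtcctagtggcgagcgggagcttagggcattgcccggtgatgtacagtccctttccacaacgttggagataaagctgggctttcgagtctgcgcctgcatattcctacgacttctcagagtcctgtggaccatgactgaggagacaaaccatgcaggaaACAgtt
Snord50b in *Snhg5*, chr9:88521797-88521868 (- strand): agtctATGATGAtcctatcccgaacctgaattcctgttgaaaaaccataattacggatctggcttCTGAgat
Snord87 in *Snhg6*, chr1:9942463-9942549 (- strand): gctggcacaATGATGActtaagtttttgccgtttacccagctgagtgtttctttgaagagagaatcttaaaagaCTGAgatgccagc
Snora24 in *Snhg8*, chr3:123507937-123508066 (- strand): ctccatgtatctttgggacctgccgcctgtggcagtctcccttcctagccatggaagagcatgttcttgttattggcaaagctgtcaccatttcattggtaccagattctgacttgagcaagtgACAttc
Snora16a in *Snhg12*, chr4:132309464-132309600 (+ strand): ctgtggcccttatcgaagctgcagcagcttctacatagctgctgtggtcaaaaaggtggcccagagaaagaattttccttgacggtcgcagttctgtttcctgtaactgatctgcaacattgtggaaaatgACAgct
By these letters, read on the strand of each snoRNA, 16 of the 27 carried boxes C and D, 5 ended in the H/ACA motif and 6 matched neither. Over all 1507 annotated snoRNAs the shares were 20.1% with C and D and 43.5% with H/ACA. *Gas5*, *Snhg1*, *Snhg5* and *Snhg6* held C/D snoRNAs and none with the H/ACA letters, *Snhg3* and *Snhg8* the reverse, and *Snhg12* both kinds.

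The starts of the host genes are shown because a pyrimidine tract at or near the first base is a sequence feature that the choice of genes did not use. Windows of 70 bases, with 25 before the RefSeq start (GRCm38.p6) and 45 from it, follow for *Malat1* and for the 3 hosts with the longest tracts. Capitals mark a C followed by at least 4 more bases that are each C or T, beginning within 10 bases of the start on the strand of the gene.
*Malat1*, chr19:5802628-5802697 (- strand): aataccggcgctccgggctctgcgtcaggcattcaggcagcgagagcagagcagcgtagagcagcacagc
*Gas5*, chr1:161035141-161035210 (+ strand): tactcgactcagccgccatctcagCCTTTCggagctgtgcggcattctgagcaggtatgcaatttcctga
*Snhg8*, chr3:123508292-123508361 (- strand): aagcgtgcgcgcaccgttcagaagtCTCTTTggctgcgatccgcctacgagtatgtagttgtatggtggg
*Snhg12*, chr4:132308653-132308722 (+ strand): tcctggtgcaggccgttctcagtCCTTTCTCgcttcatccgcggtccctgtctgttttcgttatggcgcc
RefSeq windows were matched for 7 of the 9 genes, and *Neat1* and *Snhg6* were not among them. The tract was found in 5 of the 7, namely *Gas5* (in 1 of its 2 windows), *Snhg3*, *Snhg5*, *Snhg8* and *Snhg12*, and no match was found for *Malat1* and *Snhg1*. Relative to the RefSeq start it began at 0 in *Snhg8*, -1 in *Gas5*, -2 in *Snhg12*, 2 in *Snhg3* and 9 in *Snhg5*. A match is therefore not by itself a 5′ TOP start. Over all 27025 genes with a window 34.4% had such a tract. The CpG content of the 300-base windows, as observed over expected CpG, was 0.604 for *Malat1* and between 0.672 and 1.26 for the hosts, against a median of 0.384 over all windows.

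*Malat1* had the most counts of the 9 genes in both libraries, and it was lower in the KO-labelled library. Its merged exons cover the whole gene (chr19:5795690-5802672, minus strand, ENSMUSG00000092341.3, lincRNA). It had 4953 counts in WT and 1952 in the KO-labelled library, which are 859 CPM (836 to 884) and 470 CPM (449 to 491). In normalised counts it was 4250.4 and 2275, so that the second library held 53.5% of the WT value, and the log2 ratio was -0.90 (-0.98 to -0.83). By count, *Malat1* ranked 85 among all gene symbols in WT and 250 in the other library. In bulk libraries, fewer cells of a type and less RNA per cell cannot be told apart. The difference was past 1.5-fold and short of 2-fold.

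*Neat1* lies beside *Malat1* (chr19:5824708-5845478, minus strand, ENSMUSG00000092274.3) and was a weak signal in these cells. It had 78 counts in WT and 39 in the KO-labelled library, or 13.5 and 9.38 CPM. Its normalised counts were 66.9 and 45.4 and its log2 ratio was -0.55, with an interval from -1.15 to 0.01 that includes 0. A difference in *Neat1* was therefore not detectable at this depth. *Malat1* had 63.5 counts for each *Neat1* count in WT and 50.1 in the other library, and the log2 ratio of these 2 ratios, which needs no scaling between libraries, was -0.34 (-0.92 to 0.26).

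*Gas5*, a host that accumulates in growth-arrested cells and the host with the most counts here, was slightly higher in the KO-labelled library (chr1:161034422-161038539, plus strand, ENSMUSG00000053332.13). Its counts were 1193 and 1002, which are 207 CPM (195 to 219) and 241 CPM (226 to 256). Normalised counts were 1024 and 1168, and the log2 ratio was 0.19 (0.07 to 0.31). Set against each other inside each library, *Malat1* had 4.15 counts for each *Gas5* count in WT and 1.95 in the KO-labelled library, a log2 ratio of ratios of -1.09 (-1.24 to -0.95). This ratio uses no scaling between the libraries. For *Neat1* against *Gas5* it was 0.0654 and 0.0389, with a log2 ratio of ratios of -0.75 (-1.36 to -0.16).

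The 6 remaining hosts had between 29 and 88 counts in either library, and the interval of each log2 ratio included 0. *Snhg1*, host of a row of C/D snoRNAs (chr19:8723475-8726443, plus strand), had 75 and 52 counts, normalised to 64.4 and 60.6, with a log2 ratio of -0.09 (-0.63 to 0.44). *Snhg3*, host of the pair Snora73a and Snora73b (chr4:132348014-132353686, minus strand), had 42 and 31 counts, normalised to 36.0 and 36.1, with a log2 ratio of 0.0032 (-0.72 to 0.71). These 2 hosts had nearly equal normalised counts in the libraries. *Snhg5*, host of Snord50a and Snord50b (chr9:88521050-88522929, minus strand), had 65 and 64 counts, normalised to 55.8 and 74.6, with a log2 ratio of 0.41 (-0.10 to 0.94). *Snhg6*, host of Snord87 (chr1:9941959-9944118, minus strand), had 44 and 30 counts, normalised to 37.8 and 35.0, with a log2 ratio of -0.11 (-0.83 to 0.59). *Snhg5* therefore had the highest log2 ratio of the 9 genes, on 65 and 64 counts. *Snhg8*, host of Snora24 (chr3:123507552-123508404, minus strand), had 88 and 67 counts, normalised to 75.5 and 78.1, with a log2 ratio of 0.05 (-0.43 to 0.52). *Snhg12*, host of Snora16a, Snora44, Snora61 and Snord99 (chr4:132308623-132311024, plus strand), had 31 and 29 counts, normalised to 26.6 and 33.8, with a log2 ratio of 0.33 (-0.44 to 1.12).

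**Figure D1:**
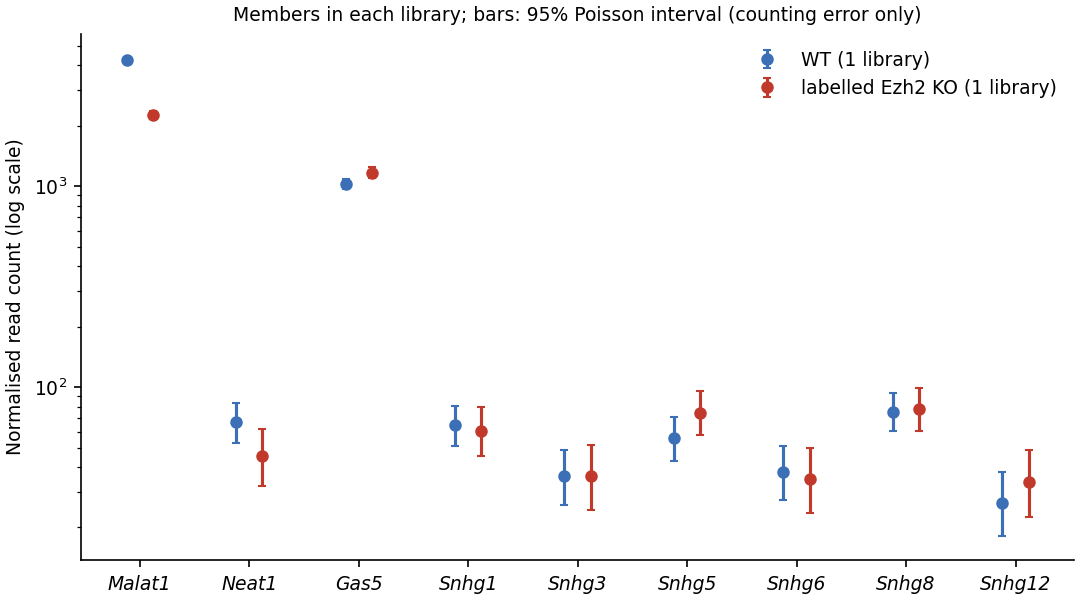
Level of each of the 9 genes in the WT library and in the KO-labelled library, in normalised read counts on a log axis. Bars are 95% counting intervals, with 1 library per group. *Malat1* stood at 4250 and 2275 normalised counts and *Gas5* at 1024 and 1168, while the other 7 genes lay between 26.6 and 78.1.

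As a group, 0 of the 9 genes were past 2-fold higher, against 4.91% of all genes tested, and 0 were past 2-fold lower, against 3.90%. At 1.5-fold, 0 of 9 were higher, against 10.5% of genes, and 1 of 9, *Malat1*, was lower, against 10.0%. The counting interval lay above 0 for 1 of 9 (*Gas5*), against 19.2% of genes, and below 0 for 1 of 9 (*Malat1*), against 20.8%. Log2 ratios were above 0 for 5 genes and below 0 for 4, and their median was 0.0032, beside -0.0032 over all genes tested. The 7 hosts had a median of 0.05, with 5 above 0 and 2 below. Summed over the 9 genes, counts were 6569 and 3266, which is 0.114% and 0.0786% of the gene counts, and *Malat1* made up 75.4% and 59.8% of these sums. Summed over the 7 hosts, normalised counts were 1320 and 1486, a log2 ratio of 0.17 (0.06 to 0.28), and *Gas5* made up 77.6% and 78.6% of the host counts. Without *Gas5*, the other 6 hosts together had 345 and 273 counts and a log2 ratio of 0.10 (-0.13 to 0.34).

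The size of the *Malat1* difference was set against genes of like abundance. Of 950 genes averaging 1000 or more normalised counts, the 5th to 95th percentiles of the log2 ratio ran from -0.40 to 0.28, and 7 genes (0.737%) were at or below *Malat1*, itself included. The other 6, singled out after their values were seen, were *Fos* (-1.50), *Egr1* (-1.26), *F2r* (-1.18), *Mycn* (-1.07), *Igfbp4* (-0.91) and *Junb* (-0.91). *Fos*, *Egr1* and *Junb* belong to the immediate-early list whose sum was 0.479 times the WT value. *Gas5*, in the same range of abundance, lay inside the 5th to 95th percentiles. Among 2918 genes with 20 to 100 mean normalised counts the same percentiles were -1.16 and 1.18, and 19.6% of them were at or below *Neat1* while 25.4% were at or above *Snhg5*.

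**Figure D2:**
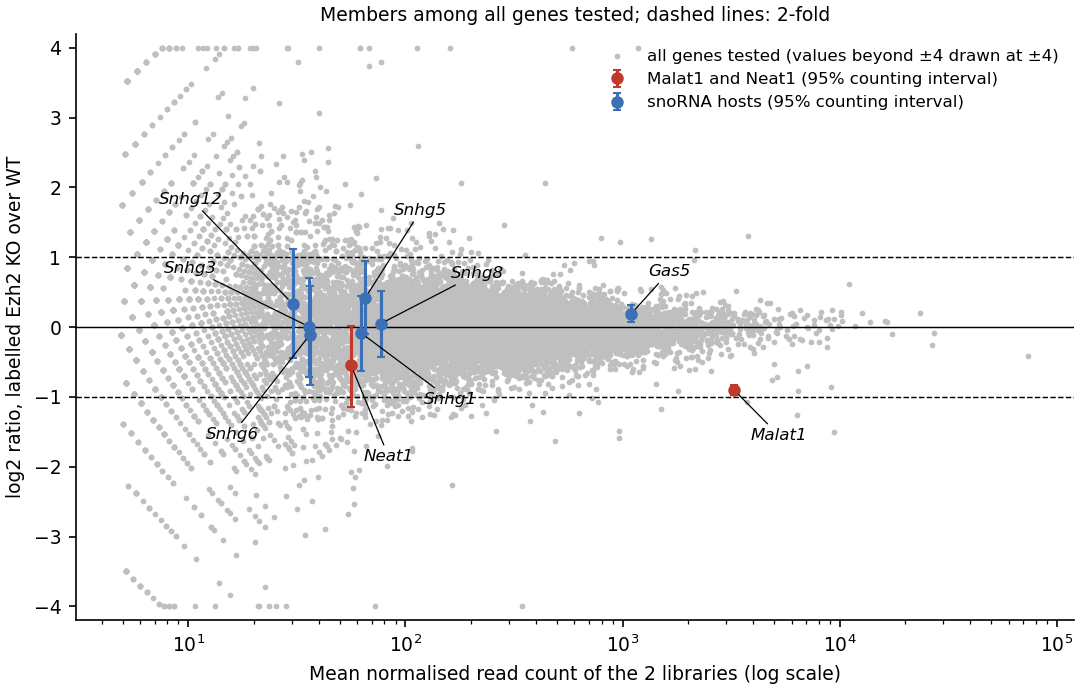
Log2 ratio of the KO-labelled library over WT against the mean normalised read count (log axis), with the 12588 genes tested as grey points and the 9 genes in colour with 95% counting intervals. *Malat1* lies at -0.90, below nearly all genes of its abundance, and the hosts lie near 0 inside the spread of genes at their own counts.

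The counts above are not levels that can be compared between genes, so levels were also expressed per length of exon. On the scale of CPM per kilobase of all annotated exons merged, *Malat1* was at 123 in WT and 67.2 in the KO-labelled library, *Gas5* at 55.1 and 64.1, and *Snhg8* at 17.9 and 18.9. *Snhg3*, *Snhg6*, *Snhg5*, *Snhg1* and *Snhg12* followed in WT between 2.24 and 7.39, and *Neat1* was lowest at 0.652 and 0.452. Merged exons overstate the length of genes with retained introns. With the longest RefSeq-linked transcript instead, *Malat1* stayed at 123 and 67.2 and *Gas5* was at 81.0 and 94.3, so *Gas5* stood above *Malat1* in the KO-labelled library on this scale and just below it on the first. With the median length of the annotated transcripts, which is 606 bases for *Malat1* and 629 for *Gas5*, *Malat1* was at 1418 and 775 and *Gas5* at 329 and 383, so *Malat1* was higher in both libraries. The RefSeq-linked transcripts are 6983 bases for *Malat1* and 2556 for *Gas5*, so the median shortens *Malat1* more. The margin of *Malat1* on this scale therefore rests on short annotated transcripts. The RefSeq-linked *Gas5* transcript keeps intron sequence too, as its exons overlap snoRNAs such as Snord78. Dividing *Malat1* by 6983 bases and *Gas5* by its median of 629 gave 123 and 67.2 against 329 and 383. *Gas5* was then the higher in both libraries. *Neat1* was at 6.71 and 4.65 on this scale, with *Snhg12* below it in WT at 5.88 and above it in the KO-labelled library at 7.62. With its short form of 3004 bases *Neat1* was at 4.51 and 3.12. The order of *Malat1* and *Gas5* thus depends in both libraries on the length taken for each. That of *Neat1* and *Snhg12* in WT also differs between these lengths. The length that the deposited counts refer to is not given in the sources used here.

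The snoRNAs themselves had few counts in these libraries. Of the 27, 8 had an entry in the count files, with 7 counts in WT and 9 in the KO-labelled library in all. Snord47 in *Gas5* had 3 and 7 counts, Snord22 in *Snhg1* 3 and 2, and Snora44 in *Snhg12* 1 and 0. Snord87, Snora24, Snora16a, Snora61 and Snord99 were at 0 in both. All 110 Snora and Snord symbols of the files had 97 and 81 counts together. snoRNAs are short and lack a poly(A) tail, and the values of the hosts are those of the host gene entry, not of its snoRNAs. Some snoRNAs overlap a RefSeq-linked exon of the host, so host counts may include reads over them. These are Snora24 in *Snhg8* and, in *Gas5*, Gm26224, Gm22489, Gm22357, Gm23212, Snord78 and Mir5117.

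**Figure D3:**
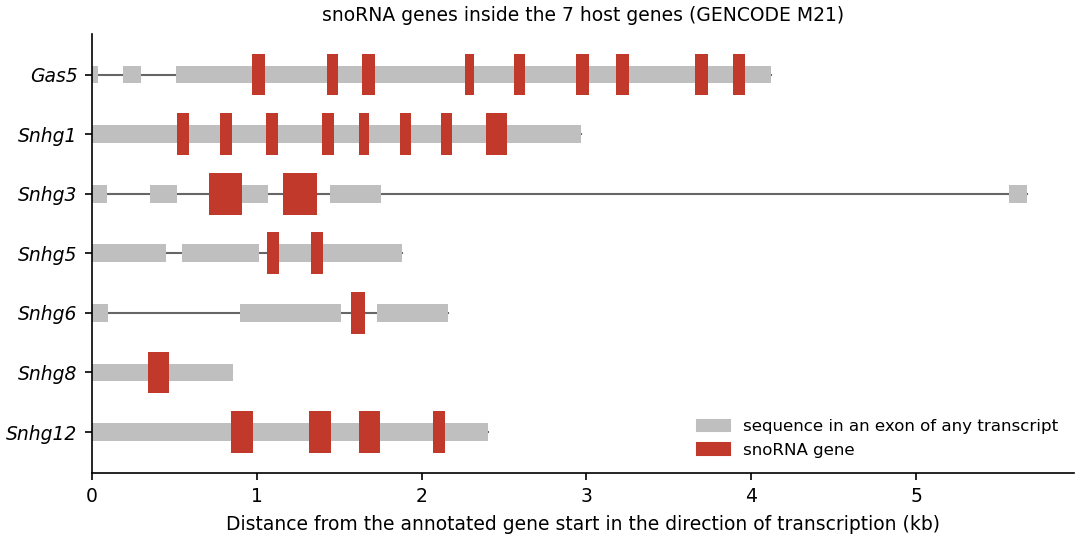
Maps of the snoRNA hosts drawn to scale in bases from the gene start, with exons of any annotated transcript in grey and annotated snoRNAs in colour. *Gas5* and *Snhg1* carry 9 and 8 snoRNAs, and *Snhg6* and *Snhg8* carry 1.

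Several members share their start region or exons with another gene, and the library kits named in the labels do not keep strand. *Snhg3* overlaps *Rcc1*, the exchange factor of the GTPase Ran, by 5592 bases on the same strand, with starts 81 bases apart. *Rcc1* had 461 and 214 counts and a log2 ratio of -0.66 (-0.91 to -0.43), beside 0.0032 for *Snhg3*. Counts per *Rcc1* count of *Snhg3* were 0.0911 and 0.145, a log2 ratio of ratios of 0.67 (-0.09 to 1.42). *Gas5* overlaps *Zbtb37* by 428 bases on the opposite strand, and *Zbtb37* had 31 and 17 counts and a log2 ratio of -0.41 (-1.37 to 0.47). Reads of the shared bases cannot be told apart by strand. Entries labelled ambiguous, 69965 counts in WT and 51971 in the KO-labelled library, name no gene and were left out. Whether reads of the shared bases are among them is not given in the sources used here. *Slc3a2*, the heavy chain of amino acid transporters, starts 106 bases from *Snhg1* on the opposite strand and had 1306 and 945 counts, a log2 ratio of -0.03, beside -0.09 for *Snhg1*. *Trnau1ap*, 739 bases from *Snhg12*, had 361 and 341 counts, a log2 ratio of 0.36. *Mcmdc2* overlaps *Snhg6* by 127 bases and had 11 and 12 counts. Of 17 genes next to or overlapping a member 13 could be tested, with 6 above 0, 7 below and a median of -0.02, which was 0.0076 when scaled to total gene counts. *Rab42*, with 5 and 18 counts and a log2 ratio of 2.05 (0.81 to 4.07), was the only one past 2-fold. Over all genes tested, 4.91% were past 2-fold higher and 3.90% lower.

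Around *Malat1*, the log2 ratios of other genes were smaller. Besides *Neat1*, 15 tested genes with any part within 200 kb of *Malat1*, a window chosen after values were seen, were compared, 4 of them above 0 and 11 below, with a median of -0.16. They ran from -0.54 for *Capn1* to 0.11 for *Kat5*. Past 2-fold were 0 of the 15, against 4.91% of all genes tested higher and 3.90% lower. *Frmd8*, on the far side of *Neat1*, was at -0.20 (-0.31 to -0.10).

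**Figure D4:**
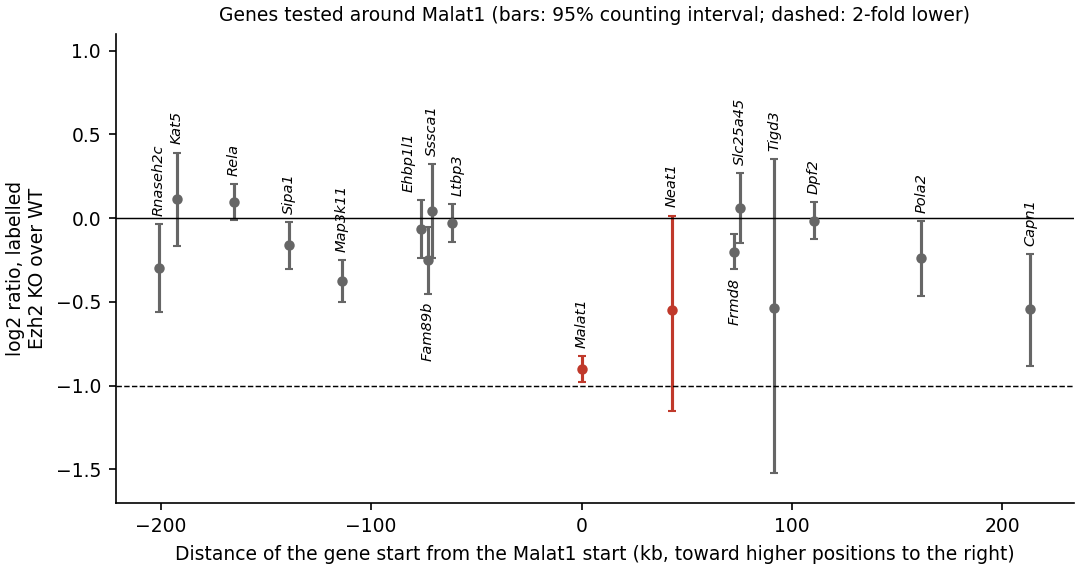
Log2 ratio of the KO-labelled library over WT for *Malat1*, *Neat1* and 15 other tested genes with any part within 200 kb of *Malat1*, by distance of its start from that of *Malat1* in kb, with 95% counting intervals. *Malat1* (-0.90) and *Neat1* (-0.55) are in red, and the other genes lie between -0.54 and 0.11.

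The genes of the proteins that act with these RNAs stayed within 2-fold in RNA counts, and protein was not measured. The 16 snoRNP core and assembly proteins, which package snoRNAs, had a median log2 ratio of -0.03 and a range from -0.29 to 0.46, with 6 above 0. *Nop56*, a C/D core protein, was at -0.28 (-0.40 to -0.16), and *Ruvbl1*, an assembly ATPase, at -0.15 (-0.28 to -0.03). The 10 factors of nonsense-mediated decay, the route that removes spliced host RNAs, had a median of 0.05, with the helicase *Upf1* at -0.08 and the endonuclease *Smg6* at -0.28. The 9 paraspeckle proteins that bind *Neat1* had a median of -0.02, with *Hnrnpk* at -0.01 and *Nono* at 0.02. The 9 nuclear speckle proteins had a median of 0.08, with the splicing factors *Srsf3* at 0.05 and *Srsf2* at -0.02. In each of these lists 0 genes were past 2-fold in either direction, against 4.91% of all genes tested higher and 3.90% lower. Among the 950 genes averaging 1000 or more normalised counts, 4 were past 2-fold higher and 4 lower. A count of 0 in so short a list does not set it apart. At 1.5-fold, 1 gene of the speckle list was higher (*Pnisr*, 254 and 291 counts, log2 ratio 0.64, named after its value was seen) and 0 genes of the other lists were past the threshold. The shares over all genes tested were 10.5% higher and 10.0% lower.

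Other noncoding RNAs and other hosts were given for comparison with the 9. Of 14 further noncoding snoRNA hosts, 10 were in the files and 7 could be tested, with 3 above 0, 4 below, a median of -0.21 and a range from -0.95 to 0.75. *Snhg17* had 45 and 24 counts (-0.45) and *Snhg4* 41 and 26 (-0.21). The 7 hosts described here had a narrower range, from -0.11 to 0.41, on 29 to 1193 counts. The further hosts tested had 4 to 45 counts, where counting error is wider, so the ranges cannot be compared directly. Past 1.5-fold were 2 of the further hosts in each direction, named after their values were seen: *Snhg7* (9 and 11 counts) and *Snhg10* (6 and 8) higher, and *Snhg18* (10 and 4) and *Snhg20* (30 and 11) lower. The counting interval of each included 0. Over all genes tested, 10.5% were past 1.5-fold higher and 10.0% lower. The 12 protein-coding snoRNA hosts that are not ribosomal proteins had a median of -0.07, with the translation factor *Eef2* at 0.02 and the chaperone *Hspa8* at -0.55 (-0.60 to -0.50). Of 16 other long noncoding RNAs, 8 could be tested, with a median of -0.0044. Among them *2900097C17Rik* had 1783 and 1178 counts (-0.16) and *Tug1* 654 and 427 (-0.17), while *Malat1* was at -0.90. In each of these lists 0 genes were past 2-fold, against 4.91% of all genes tested higher and 3.90% lower.

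**Figure D5:**
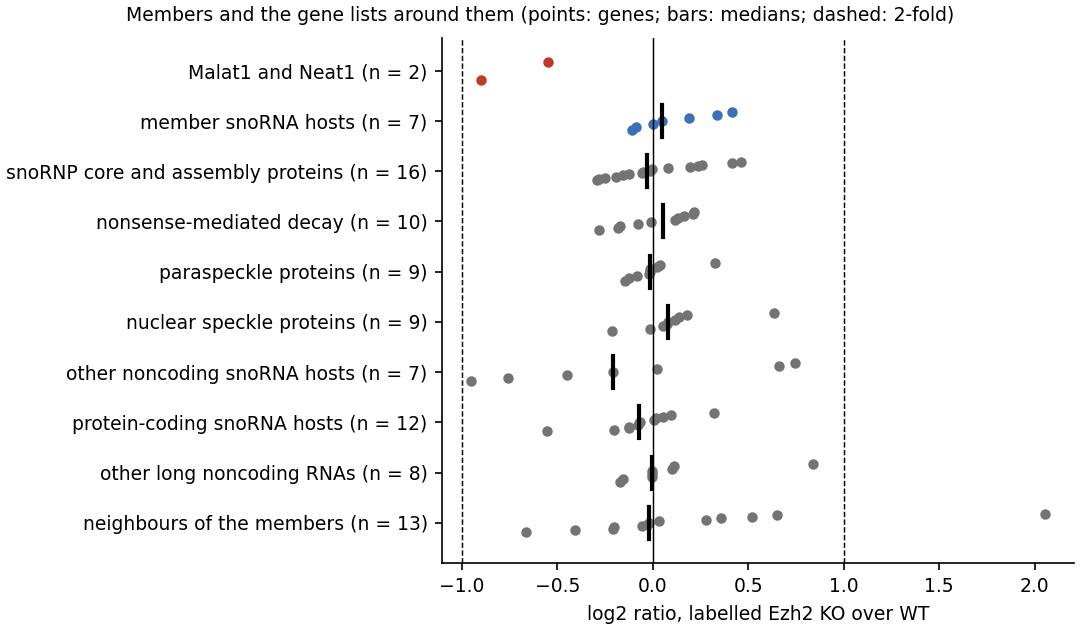
Log2 ratio of the KO-labelled library over WT for the 9 genes and for the gene lists around them, with a point per gene, a bar at the median of each list and dashed lines at 2-fold. The medians of the lists run from -0.21 to 0.08, and *Rab42*, a neighbour of *Snhg12*, is the only point beyond 2-fold.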

How the data were processed

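RNA from sorted HSCs was amplified with a low-input kit and sequenced, 1 library per group. The authors deposited raw read counts per gene symbol. The submitters' processing notes name TopHat2 2.0.13, Bowtie2 2.1.0, StringTie, edgeR and bedtools, and the build mm10, and the counting program and its strand setting are not given in the sources used here. Entries that name no gene, 56.1% and 56.9% of all counts, were left out of library sizes. Counts were scaled by median-of-ratios size factors (DESeq2 1.42.0, R 4.3.3), 1.17 for WT and 0.858 for the KO-labelled library. The log2 ratio is that of normalised counts + 1. Its 95% interval comes from the exact Clopper-Pearson interval of the share of the 2 raw counts, and CPM intervals are exact Poisson intervals (scipy 1.17.1). No model or test was fitted, because each group has 1 library. Genes with a mean of at least 1 CPM count as tested, and past 2-fold is a rule of size. The interval was checked only on simulated Poisson counts, the counting error that it assumes. That check does not cover spread between samples or PCR copies. Positions come from GENCODE M21 on GRCm38.

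The 9 genes and the gene lists were chosen with earlier results of these data known. Named were all 9 genes, *Ezh2*, their neighbours, and of each list at most 5 genes past 2-fold averaging 10 or more normalised counts, otherwise the 2 with the highest mean CPM. Alternatives were TMM scaling (edgeR 4.0.16), scaling to total gene counts with and without the 9 genes, pseudocounts of 0.5 and 5, no filter or 10 CPM, a 1.5-fold threshold and thinning WT to the other depth. Some genes of the marker lists and neighbourhoods are not reported here and were left out of their sums and counts.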

Additional observations from a re-analysis of the deposited data

How the results depend on the processing

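Of 241 recomputed values, 223 stayed within the counting interval of the value (for medians, within the median half-width of their genes' intervals, and for counts of genes, within 1.5 times). The log2 ratio of *Malat1* ran from -0.90 to -0.85 over the scalings, pseudocounts and thinning tried, that of *Neat1* from -0.55 to -0.47 and that of *Gas5* from 0.18 to 0.22. *Snhg1* changed sign when WT was thinned in 1 draw (0.07, against -0.09), and there *Snhg12* was at 0.04, against 0.33, and *Snhg3* at 0.18, against 0.0032. These lie inside the counting intervals. Medians of lists near 0 changed sign when scaled to total gene counts: paraspeckle proteins from -0.02 to 0.01, other long noncoding RNAs from -0.0044 to 0.02 and neighbours from -0.02 to 0.0076. The median over all genes tested moved in the same direction, from -0.0032 to 0.026. At 1.5-fold, 1 of the 9 genes was past the threshold lower (*Malat1*), against 0 at 2-fold. All genes past 2-fold higher numbered 96 at 10 CPM and 1404 without the filter, against 618, and 1321 were past 1.5-fold. Lower, these were 115, 1098 and 1261, against 491. At 1.5-fold, 1 speckle protein, 4 other noncoding hosts, 1 other long noncoding RNA and 3 neighbours were past the threshold. Without the filter 1 other noncoding host, 1 other long noncoding RNA and 4 neighbours were past 2-fold, at 10 CPM 0 neighbours, and with thinning 1 other noncoding host. The snoRNAs inside the 9 genes had 1 past 2-fold, and 0 with a pseudocount of 5. Their median log2 ratio reversed from 1.36, on Snord47 alone, to -0.10 without the filter, where more snoRNAs with a few counts entered. Fewer or more genes entered under the other filters by construction. At 10 CPM no other noncoding host and no snoRNA was left, so no value could be given. No paired analysis was possible because WT and Ezh2 KO have 1 library each, which also means that no library could be left out. Depth limits *Neat1* and the hosts other than *Gas5*, whose counts were between 29 and 88.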

Other observations

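A few genes near the members or in the lists, singled out after their values were seen, had counts in 1 library at most and were not tested. *Tcf24*, next to *Snhg6*, had 0 counts in WT and 7 in the KO-labelled library, and the imprinted noncoding RNA *Meg3* had 0 and 8. *Serpinc1*, near *Gas5*, had 0 and 2, and *Prss12*, near *Snhg8*, had 0 and 1. *Ndst3*, on the other side of *Snhg8*, had 0 in both, where 3 counts correspond to 0.521 and 0.722 CPM. With counts in both libraries, *Phactr4*, on the far side of *Snhg3* from *Trnau1ap*, had 74 and 86 counts and a log2 ratio of 0.65 (0.19 to 1.13), and *Pvt1*, a host of microRNAs beside *Myc*, had 23 and 31 counts and a log2 ratio of 0.84.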
